A study of Mus musculus with 8 samples.

Results

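JAK, STAT and SOCS cytokine signalling genes were followed as a set of 9 genes out of the 13388 in the deposited table, namely the kinase genes Jak1 and Jak2, the transcription factor genes Stat3, Stat5a, Stat5b and Stat6, and the feedback inhibitor genes Socs1, Socs3 and Cish. They were taken by gene symbol alone, using the first entry of each gene identifier, and all 9 were found and tested. RNA had been sequenced from wild-type mouse bone marrow cells in 8 libraries, 2 in each of 4 groups, after 6 h of coculture. The groups were common monocyte progenitors (cMoPs), dividing cells that give rise to monocytes, on OP9-DLL1 stroma; cMoPs on OP9 stroma; Ly6C+ classical monocytes on OP9-DLL1 stroma; and Ly6C+ classical monocytes on OP9 stroma. OP9 is a mouse bone marrow stromal line, and OP9-DLL1 is a form of it that presents DLL1, a ligand of Notch receptors. All 4 groups therefore shared contact with a stromal line, and no group was kept without stroma. The labels give neither the age or number of the mice nor whether libraries 1 and 2 of a group came from separate animals or cultures, and the p-values below therefore reflect no more than the spread of these libraries, which may be technical.

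Most cytokines without kinase activity in their own receptors signal through Janus kinases (JAKs), which sit on the receptor tails and phosphorylate STAT proteins. Phosphorylated STATs enter the nucleus and turn on target genes, and among those targets are the SOCS family genes, whose products bind receptors or JAKs and shut the signal off. In cells of the monocyte lineage this pathway carries the signals of GM-CSF, G-CSF, interferons, IL-4, IL-6 and IL-10. RNA levels show how much of each component's message was present and not how far the proteins were phosphorylated.

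Recovered depth was 47316323 to 62459962 reads per library, at which 1 read was worth 0.0151 to 0.0231 CPM, the scale on which the authors made libraries of unlike size comparable. The labelled cell types matched their markers: the summed level of 8 progenitor marker genes was 14800 to 22100 CPM in cMoPs and 235 to 448 CPM in monocytes, and that of 6 classical monocyte markers was 3848 to 4495 CPM in cMoPs and 4964 to 7046 CPM in monocytes. The 2 monocyte libraries on OP9 stood further apart than other replicates, as 1445 genes differed more than 2-fold between them, while 724 to 804 did so within the other pairs. In bulk RNA, a change in the share of a cell type and a change in RNA per cell cannot be told apart.

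The clearest difference was between the cell types. On OP9, 8 of the 9 genes were lower in cMoPs than in monocytes and none was higher, with limma-trend and a Benjamini-Hochberg adjusted p under 0.05 over all tested genes, the rule by which a gene is said here to pass, rise or fall. Over all 13374 tested genes, 56.5% passed in that comparison, 27.7% as lower and 28.8% as higher. On OP9-DLL1, 8 of 9 were again lower, against 57.4% of all genes passing and 29.2% passing as lower. The gene that did not pass was Stat5a in both comparisons. The median log2 fold change of the 9 genes was -0.91 on OP9 and -1.09 on OP9-DLL1, beside 0.01 and -0.01 over all genes. Socs1 passed the low-value filter only through the monocyte libraries, so its own fall is no independent support for the count. Among the other 8 genes, 7 fell on each stroma.

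**Figure D1:**
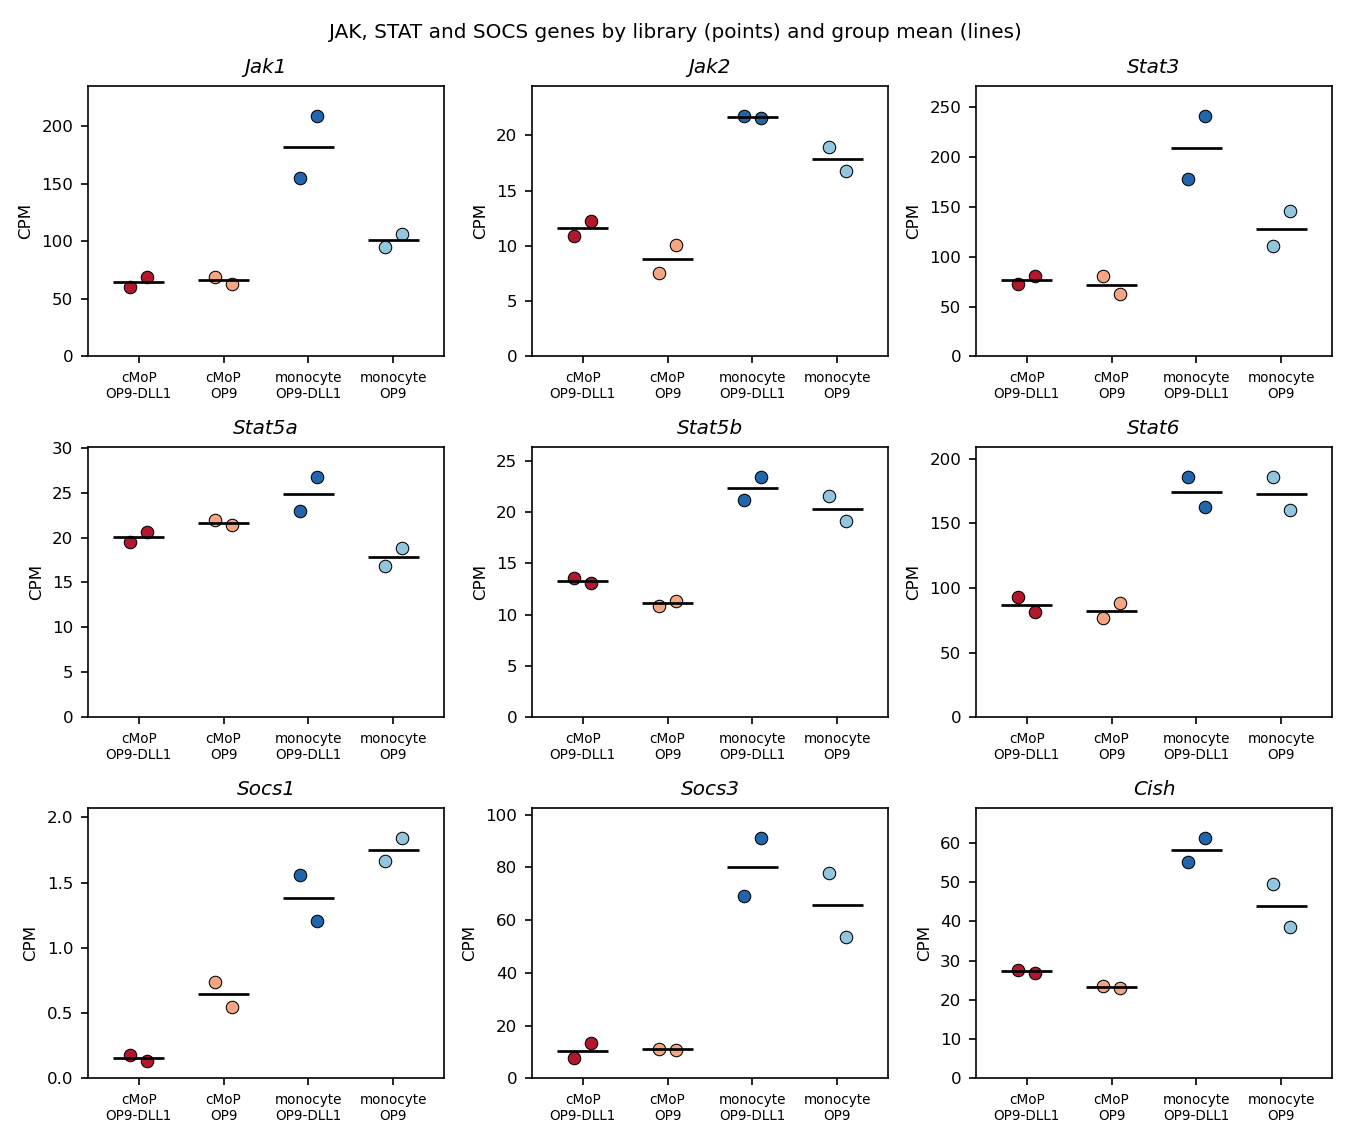
Level of each of the 9 genes in CPM (vertical axes, linear and starting at 0) in the 4 groups, with a point for each of the 2 libraries and a line at the group mean. Monocyte points lie above cMoP points for every gene except Stat5a, and the monocytes on OP9-DLL1 stand apart from those on OP9 for Jak1 (155 and 209 against 95.1 and 107 CPM) and Stat3.

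The kinase genes were lower in cMoPs. Jak1, which encodes the kinase shared by the gp130, interferon and common gamma chain receptors, lies on chromosome 4 (101152367 to 101265282, minus strand, GRCm38). Its level was 59.9 and 69.3 CPM on OP9-DLL1 and 69.3 and 62.8 CPM on OP9 in cMoPs, against 155 and 209 CPM on OP9-DLL1 and 95.1 and 107 CPM on OP9 in monocytes. Every cMoP library was below every monocyte library. On OP9-DLL1 the log2 fold change was -1.48 ± 0.16 (SE; adjusted p = 5.83e-05, limma-trend), and on OP9 it was -0.61 ± 0.16 (adjusted p = 0.0103). The OP9 call was lost without cMoP library 2 on OP9 (adjusted p = 0.0753, limma-trend).

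Jak2 encodes the kinase used by the GM-CSF, IL-3 and interferon-gamma receptors and lies on chromosome 19 (29251828 to 29313080, plus strand). It was read at 10.9 and 12.3 CPM on OP9-DLL1 and 7.59 and 10.1 CPM on OP9 in cMoPs, against 21.8 and 21.6 CPM on OP9-DLL1 and 18.9 and 16.8 CPM on OP9 in monocytes. The cell types did not overlap. The log2 fold change of cMoPs against monocytes was -0.91 ± 0.19 on OP9-DLL1 (adjusted p = 0.00262) and -1.03 ± 0.19 on OP9 (adjusted p = 0.00137, limma-trend).

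Of the transcription factor genes, Stat3, Stat5b and Stat6 fell and Stat5a did not pass. Stat5b, Stat5a and Stat3 are neighbours on chromosome 11, in a stretch of 158.8 kb (100780731 to 100939540). Stat3, whose protein mediates IL-6, IL-10 and G-CSF signals, had 72.4 and 80.7 CPM on OP9-DLL1 and 81.0 and 62.8 CPM on OP9 in cMoPs, against 178 and 241 CPM on OP9-DLL1 and 110.3 and 146 CPM on OP9 in monocytes. No cMoP library reached the lowest monocyte library. The log2 fold change was -1.44 ± 0.20 on OP9-DLL1 (adjusted p = 0.000231) and -0.83 ± 0.20 on OP9 (adjusted p = 0.00588, limma-trend). Without cMoP library 2 on OP9 the OP9 call was lost (adjusted p = 0.0591, limma-trend).

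Stat6, the mediator of IL-4 and IL-13 signals (chromosome 10, 127642986 to 127660957, plus strand), had 93.2 and 81.3 CPM on OP9-DLL1 and 76.5 and 88.4 CPM on OP9 in cMoPs, against 186 and 163 CPM on OP9-DLL1 and 186 and 160.2 CPM on OP9 in monocytes. The lowest monocyte library stood far above the highest cMoP library. Its log2 fold change was -0.999 ± 0.14 on OP9-DLL1 (adjusted p = 0.000261) and -1.07 ± 0.14 on OP9 (adjusted p = 0.000194, limma-trend).

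Stat5a and Stat5b encode closely related factors that act downstream of GM-CSF, IL-3 and other growth factor receptors. Stat5b was read at 13.5 and 13.1 CPM on OP9-DLL1 and 10.9 and 11.4 CPM on OP9 in cMoPs, against 21.2 and 23.4 CPM on OP9-DLL1 and 21.6 and 19.2 CPM on OP9 in monocytes. It was lower in every cMoP library, with log2 fold changes of -0.74 ± 0.15 on OP9-DLL1 (adjusted p = 0.0029) and -0.87 ± 0.15 on OP9 (adjusted p = 0.00125, limma-trend). Stat5a had 19.6 and 20.6 CPM on OP9-DLL1 and 21.9 and 21.4 CPM on OP9 in cMoPs, against 23.0 and 26.7 CPM on OP9-DLL1 and 16.8 and 18.8 CPM on OP9 in monocytes. The cMoP libraries thus lay between the monocytes of either stroma. The log2 fold change was -0.30 ± 0.15 on OP9-DLL1 (95% interval -0.65 to 0.04, adjusted p = 0.112) and 0.28 ± 0.15 on OP9 (95% interval -0.06 to 0.62, adjusted p = 0.139, limma-trend).

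Per length, the ratio of Stat5a to Stat5b was 1.12 and 1.22 in cMoPs on OP9-DLL1 and 1.56 and 1.46 in cMoPs on OP9, against 0.842 and 0.886 in monocytes on OP9-DLL1 and 0.605 and 0.764 in monocytes on OP9. The ratio was thus higher in each of the 4 cMoP libraries than in any of the 4 monocyte libraries. Lengths were all annotated exon bases, 7133 for Stat5a and 5539 for Stat5b, not those of the transcripts present. Which of the pair was the more abundant depends on these lengths. In unscaled CPM, Stat5a was above Stat5b in monocytes on OP9-DLL1 (23.0 and 26.7 against 21.2 and 23.4). It was below Stat5b in monocytes on OP9 (16.8 and 18.8 against 21.6 and 19.2). This ratio was chosen after its values were seen and was not tested. The transcripts of Stat5a and Stat5b share 608 stretches of 50 bases, 14.7% of those of Stat5a and 11.1% of those of Stat5b, so reads from shared stretches may be split or dropped by counting, and both levels are uncertain to that extent. Stat3 and Stat5a also overlap tail to tail by 72 exon bases, and the library kit does not mark the strand.

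The 3 feedback inhibitor genes were lower in cMoPs on both stromas. Cish, Socs3 and Socs1 are classical STAT-induced genes, and their promoter windows are shown because those windows, alone among the 11 windows matched to the 9 genes, held a motif that was searched. The windows are from RefSeq on GRCm38.p6 and run from 250 bases before the annotated start to 50 bases from it on, 5′ to 3′ on the gene's strand. Capitals mark TTCNNNGAA, the spaced palindrome that most STAT dimers bind, in Cish (chr9:107296409-107296708, plus strand) and Socs3 (chr11:117969317-117969616, minus strand), and TGGGAA in Socs1 (chr16:10785487-10785786, minus strand). 
Cish: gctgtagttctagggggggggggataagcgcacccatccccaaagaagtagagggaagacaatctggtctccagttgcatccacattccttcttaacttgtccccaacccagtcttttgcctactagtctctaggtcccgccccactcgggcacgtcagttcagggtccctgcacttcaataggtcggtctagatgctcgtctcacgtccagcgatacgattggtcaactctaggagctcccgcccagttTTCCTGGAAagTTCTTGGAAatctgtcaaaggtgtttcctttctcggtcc
Socs3: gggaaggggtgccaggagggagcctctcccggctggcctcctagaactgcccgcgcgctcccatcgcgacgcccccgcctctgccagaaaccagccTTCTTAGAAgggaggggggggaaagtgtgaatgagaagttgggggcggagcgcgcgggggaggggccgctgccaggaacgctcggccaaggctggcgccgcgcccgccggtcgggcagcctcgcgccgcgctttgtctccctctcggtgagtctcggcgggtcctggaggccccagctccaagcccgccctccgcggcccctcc
Socs1: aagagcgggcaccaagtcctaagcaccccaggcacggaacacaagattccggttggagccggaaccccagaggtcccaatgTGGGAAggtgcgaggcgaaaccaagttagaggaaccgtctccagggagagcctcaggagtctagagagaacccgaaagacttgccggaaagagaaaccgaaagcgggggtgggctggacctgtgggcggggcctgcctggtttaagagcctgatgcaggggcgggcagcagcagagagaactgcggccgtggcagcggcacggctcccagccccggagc
Cish held TTCCTGGAA and TTCTTGGAA, beginning at bases 251 and 262 of its window, and Socs3 held TTCTTAGAA, beginning at base 97. The TGGGAA of Socs1, beginning at base 82, is a different motif from that palindrome, and the Socs1 window held no TTCNNNGAA. Over all 32851 RefSeq windows of this length, 8.3% held TTCNNNGAA on either strand, 25.6% held TGGGAA on either strand, and 6.95% held the form with a gap wider by 1 base that STAT6 prefers, which none of the 9 genes had. The 3 motifs do not overlap one another in these windows. A match of letters is a description and not a binding site.

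Socs3, an inhibitor of gp130 and G-CSF receptor signals (chromosome 11, 117966079 to 117970047, minus strand), was read at 7.52 and 13.6 CPM on OP9-DLL1 and 11.1 and 10.8 CPM on OP9 in cMoPs, against 69.3 and 91.1 CPM on OP9-DLL1 and 77.9 and 53.4 CPM on OP9 in monocytes. The groups were far apart although the replicates themselves spread widely. Its log2 fold change was -2.97 ± 0.28 on OP9-DLL1 (adjusted p = 2.52e-05) and -2.56 ± 0.28 on OP9 (adjusted p = 7.41e-05, limma-trend), which is 7.86-fold and 5.89-fold lower in cMoPs. Over all tested genes, the 5th percentile of log2 fold changes was -2.73 on OP9-DLL1 and -2.59 on OP9.

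Socs1, which blocks interferon signalling by inhibiting JAKs directly (chromosome 16, 10782240 to 10785536, minus strand), was the scarcest of the 9 genes. It was read at 0.176 and 0.135 CPM on OP9-DLL1 and 0.741 and 0.548 CPM on OP9 in cMoPs, against 1.56 and 1.20 CPM on OP9-DLL1 and 1.66 and 1.84 CPM on OP9 in monocytes. Over each pair of libraries these levels rest on 18 reads for cMoPs on OP9-DLL1, 79 for cMoPs on OP9, 138 for monocytes on OP9-DLL1 and 171 for monocytes on OP9. All cMoP libraries were below all monocyte libraries. The log2 fold change was -3.09 ± 0.50 on OP9-DLL1 (adjusted p = 0.000697) and -1.45 ± 0.50 on OP9 (adjusted p = 0.0343, limma-trend). The OP9 call was lost when any one library was left out other than the cMoP libraries on OP9-DLL1, with adjusted p up to 0.155 (limma-trend, without cMoP library 2 on OP9).

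Cish encodes an inhibitor that STAT5 induces and that restrains GM-CSF-type receptors (chromosome 9, 107296026 to 107302784, plus strand). It was read at 27.7 and 26.9 CPM on OP9-DLL1 and 23.4 and 23.0 CPM on OP9 in cMoPs, against 55.1 and 61.2 CPM on OP9-DLL1 and 49.5 and 38.6 CPM on OP9 in monocytes. No cMoP library reached the level of a monocyte library. Its log2 fold change was -1.09 ± 0.15 on OP9-DLL1 (adjusted p = 0.000271) and -0.91 ± 0.15 on OP9 (adjusted p = 0.000854, limma-trend). An annotated antisense gene, Gm17041, covers 7.46% of the exon bases of Cish, and its reads cannot be told apart from those of Cish.

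**Figure D2:**
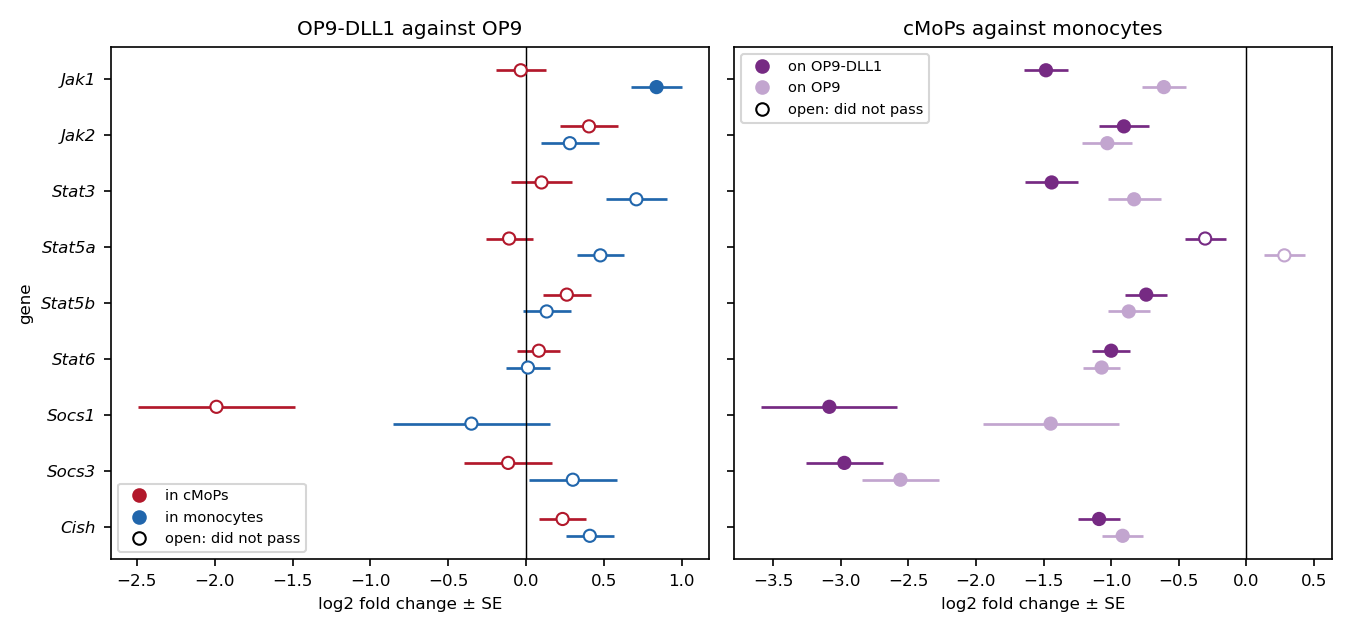
Log2 fold change with its SE for each of the 9 genes, OP9-DLL1 against OP9 on the left and cMoPs against monocytes on the right, filled where the gene passed. On the right 8 genes lie below 0 on both stromas, and on the left the only filled point is Jak1 in monocytes (0.84 ± 0.16).

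Markers of other cell types also differed between the cell types, in both directions. The summed level of 9 neutrophil markers of 10 listed was 471 to 541 CPM in cMoPs and 1376 to 2310 CPM in monocytes, that of 8 macrophage markers of 9 listed was 95.4 to 135 CPM in cMoPs and 395 to 743 CPM in monocytes, and that of 7 stromal markers of 18 listed was 4.59 to 8.55 CPM in cMoPs and 77.1 to 112 CPM in monocytes. Of the neutrophil markers, Mmp8 was 6.70 to 15.8 CPM in cMoPs and 534 to 1520 CPM in monocytes. S100a8 overlapped, at 242 to 375 CPM in cMoPs and 251 to 347 CPM in monocytes. On OP9-DLL1, 3 of the 9 were lower in cMoPs and 1, Cxcr2, was higher, beside 29.2% and 28.2% of all genes. On OP9, 4 were lower and 0 higher, beside 27.7% and 28.8%. Adgre1, the largest macrophage marker in monocytes, was 18.3 to 22.5 CPM in cMoPs and 202.5 to 449 CPM in monocytes. Vcam1 overlapped, at 1.47 to 3.53 CPM and 1.90 to 2.08 CPM. Of the 8 macrophage markers, 5 were lower in cMoPs and 1, Cd163, was higher on OP9-DLL1. On OP9 6 were lower and 0 higher. C1qa, lower on both stromas, passed the low-value filter through the monocyte libraries alone. The sum of 3 dendritic cell markers of 6 listed was 0.741 to 1.74 CPM in cMoPs and 5.63 to 32.8 CPM in monocytes. In the other direction, the sum of 3 lymphoid and erythroid markers of 12 listed was 226 to 379 CPM in cMoPs and 13.1 to 19.6 CPM in monocytes. Of those 3, Nkg7, a granule gene of natural killer and T cells, and Cd79b, a chain of the B cell receptor, were higher in cMoPs on both stromas. None of these markers was at 0 reads in a monocyte library, and 2 stromal markers were at 0 reads in cMoP library 2 on OP9-DLL1. Their part in the differences between cell types was not tested.

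Between OP9-DLL1 and OP9, 1 of the 9 genes passed in monocytes and none in cMoPs. That gene was Jak1, which was higher in monocytes on OP9-DLL1, where 6.39% of all genes passed and 3.36% passed as higher. At an unadjusted p under 0.05, 4 of the 9 were higher (Jak1, Stat3, Stat5a and Cish) and none was lower, beside 11.2% and 10.6% of all genes. limma-voom called 2 of the 9, Jak1 and Stat3, and 4.15% of all genes, as higher. The median log2 fold change of the 9 was 0.30, beside 0.01 over all genes, and 8 of 9 values were positive. Only Socs1 was negative, and Stat6, at 0.01, changed sign when libraries were centred on their medians.

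Jak1 averaged 182 ± 37.9 CPM in monocytes on OP9-DLL1 and 100.8 ± 8.05 CPM in monocytes on OP9 (SD, n = 2 each). Both OP9-DLL1 libraries were above both OP9 libraries, and library 2 on OP9-DLL1 was the higher of its pair by more than the OP9 pair differed. The log2 fold change was 0.84 ± 0.16 (adjusted p = 0.0183, limma-trend), a 1.79-fold higher level. The call was lost without library 2 of the monocytes on OP9-DLL1 (log2 fold change 0.63, adjusted p = 0.147, limma-trend). Jak1 had an adjusted p of 0.0322 in the authors' deposited table.

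Stat3 averaged 210 ± 44.7 CPM in monocytes on OP9-DLL1 and 128 ± 25.1 CPM in monocytes on OP9, without overlap. The log2 fold change of 0.71 ± 0.20 did not pass (adjusted p = 0.0675, limma-trend), but it did with limma-voom on the recovered reads (adjusted p = 0.047) and without monocyte library 2 on OP9 (log2 fold change 0.91, adjusted p = 0.0127, limma-trend). Stat5a averaged 24.9 ± 2.64 CPM in monocytes on OP9-DLL1 and 17.8 ± 1.44 CPM in monocytes on OP9, also without overlap, with a log2 fold change of 0.48 ± 0.15 (adjusted p = 0.101, limma-trend). Cish averaged 58.2 ± 4.34 CPM in monocytes on OP9-DLL1 and 44.1 ± 7.71 CPM in monocytes on OP9, and its log2 fold change of 0.41 ± 0.15 did not pass (adjusted p = 0.154, limma-trend). Leaving out 1 monocyte library on OP9 brought Stat5a (without library 2, adjusted p = 0.0443) and Cish (without library 1, adjusted p = 0.0337) under the threshold of limma-trend. Without library 2, the number of all genes that passed was 2488, against 855 with it.

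The remaining 5 genes did not pass in monocytes. The log2 fold changes were 0.28 ± 0.19 for Jak2, 0.30 ± 0.28 for Socs3, 0.13 ± 0.15 for Stat5b and 0.01 ± 0.14 for Stat6. Socs1 had -0.35 ± 0.50. For Stat6 the 95% interval of the log2 fold change ran from -0.30 to 0.33, while for Socs1, at few reads, it ran from -1.49 to 0.79.

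Marker sums also differed between the same libraries, and members of the stromal list went both ways. Over 7 stromal markers of 18 listed, the summed level was 86.0 and 77.1 CPM on OP9-DLL1 and 112 and 102 CPM on OP9 in monocytes. Without Acta2, a smooth muscle actin gene that made up most of that sum and was set aside after its values were seen, the remaining 6 had sums of 4.80 and 19.5 CPM for monocytes on OP9-DLL1 and of 24.8 and 27.2 CPM for monocytes on OP9. Of the 7, Pdgfrb, a growth factor receptor gene of pericytes and fibroblasts, was the 1 that passed. It was higher on OP9-DLL1, at 2.89 and 4.23 CPM, against 0.0231 and 0.205 CPM on OP9 (log2 fold change 5.35 ± 0.93, adjusted p = 0.0119, limma-trend). Pdgfrb passed the low-value filter only through the monocyte libraries on OP9-DLL1, where it was high, so its call is no independent support. That call was lost without either monocyte library on OP9-DLL1 (adjusted p up to 0.122). The other 6 had negative values, among them the matrix gene Bgn (-2.26 ± 0.80, adjusted p = 0.137, limma-trend; 0.0273 with limma-voom). None of the 7 was at 0 reads in a monocyte library. The macrophage marker sum was 411 and 395 CPM on OP9-DLL1 and 743 and 496 CPM on OP9, the neutrophil marker sum was 1392 and 1376 CPM on OP9-DLL1 and 1819 and 2310 CPM on OP9, and the sum of 3 dendritic cell markers of 6 listed was 8.68 and 32.8 CPM on OP9-DLL1 and 5.63 and 16.7 CPM on OP9. Mmp8 was the largest part of the neutrophil sum, at 927 and 534 CPM on OP9-DLL1 and 1130 and 1520 CPM on OP9. S100a8, the next largest, had 267 and 347 CPM on OP9-DLL1 and 251 and 312 CPM on OP9. None of the 9 neutrophil markers passed between the stromas in monocytes. Of 8 macrophage markers, 2 were lower on OP9-DLL1 and 0 higher, beside 3.03% and 3.36% of all genes. They were Cd163 (-2.73 ± 0.46, adjusted p = 0.0103) and Trem2 (-0.80 ± 0.16, adjusted p = 0.0192, limma-trend). Of 3 dendritic cell markers 1, Batf3, was higher (3.03 ± 0.66, adjusted p = 0.0288, limma-trend). Batf3 passed the low-value filter only through the monocyte libraries on OP9-DLL1. These calls were lost without monocyte library 2 on OP9-DLL1. Of 8 progenitor markers 1, Ms4a3, passed in monocytes, as higher on OP9-DLL1 (2.24 ± 0.24, adjusted p = 0.00128, limma-trend). The part of all these markers in the response of monocytes was not tested.

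In cMoPs, none of the 9 genes passed between OP9-DLL1 and OP9, where 0.77% of all genes passed. By limma-voom the count was also 0 (0.479% of all genes), and at an unadjusted p under 0.05 it was 1, Socs1, which was lower (4.23% of all genes). Socs1 averaged 0.155 ± 0.0287 CPM in cMoPs on OP9-DLL1 and 0.644 ± 0.136 CPM in cMoPs on OP9, with both OP9-DLL1 libraries below both OP9 libraries. Its log2 fold change was -1.99 ± 0.50 (unadjusted p = 0.00322, adjusted p = 0.164, limma-trend). Without the mean-variance trend it passed (adjusted p = 0.048, limma), and with limma-voom the adjusted p was 0.34.

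Jak2 had a log2 fold change of 0.40 ± 0.19 in cMoPs (adjusted p = 0.552, limma-trend) without overlap of the groups, Stat5b had 0.26 ± 0.15 and Cish had 0.24 ± 0.15, again without overlap. Jak1 had -0.03 ± 0.16 in cMoPs, with a 95% interval of -0.40 to 0.33. Stat3 had 0.10 ± 0.20, Stat5a -0.11 ± 0.15, Stat6 0.08 ± 0.14 and Socs3 -0.11 ± 0.28. The signs of Jak1, Stat3, Stat6 and Socs3 turned when single cMoP libraries were left out.

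The response to DLL1 was then compared between the cell types as the log2 fold change in cMoPs minus that in monocytes, a contrast that shares its libraries with those above. None of the 9 genes passed by limma-trend, where 0.0523% of all genes passed, or by limma-voom (0.0449%). At an unadjusted p under 0.05, 3 were lower (Jak1, Stat5a and Socs1), beside 4.61% of all genes. The difference was -0.87 ± 0.23 for Jak1 (adjusted p = 0.259), -0.59 ± 0.21 for Stat5a (adjusted p = 0.424) and -1.64 ± 0.71 for Socs1 (adjusted p = 0.498, limma-trend). Without monocyte library 2 on OP9, Jak1 passed (difference -0.95, adjusted p = 0.0357, limma-trend), as did 1124 of all genes, against 7 with it. Stat3 had -0.61 ± 0.28, Socs3 -0.42 ± 0.40, Cish -0.17 ± 0.22, Jak2 0.12 ± 0.26, Stat5b 0.13 ± 0.22 and Stat6 0.07 ± 0.20. That Jak1 passed in monocytes and not in cMoPs is therefore not shown to be a difference between them.

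Levels were also set side by side per length, as CPM per kb of exon. The length was all annotated exon bases of a gene, not that of the transcripts present. For Cish it was 6419 bases of a span of 6759, and for Stat5a 7133 bases. Too great a length lowers a gene against the others, so the order of genes below depends on the annotation. The comparison of 1 gene between groups does not. Stat6 was the highest of the 9 genes in every group, at 19.8 ± 1.91 in cMoPs on OP9-DLL1, 18.7 ± 1.92 in cMoPs on OP9, 39.6 ± 3.65 in monocytes on OP9-DLL1 and 39.3 ± 4.13 in monocytes on OP9 (SD, n = 2 each). Socs1 was the lowest in every group, between 0.0534 ± 0.00987 in cMoPs on OP9-DLL1 and 0.602 ± 0.0435 in monocytes on OP9. Socs3 ranked 2 in monocytes of both stromas, at 27.7 ± 5.34 on OP9-DLL1 and 22.7 ± 5.99 on OP9, but 5 in cMoPs on OP9-DLL1 and 4 in cMoPs on OP9, at 3.65 ± 1.48 and 3.79 ± 0.0660 CPM per kb. Neighbours in this order overlapped between libraries in several places: Jak1 with Stat3, and Stat5b with Jak2, in monocytes on OP9, and Socs3 with Jak1 and Jak1 with Stat3 in monocytes on OP9-DLL1. In cMoPs, Stat5b overlapped with Jak2 on both stromas, and on OP9-DLL1 Jak1 overlapped with Stat3, and Socs3 with Cish and Stat5a. The other neighbours did not overlap.

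**Figure D3:**
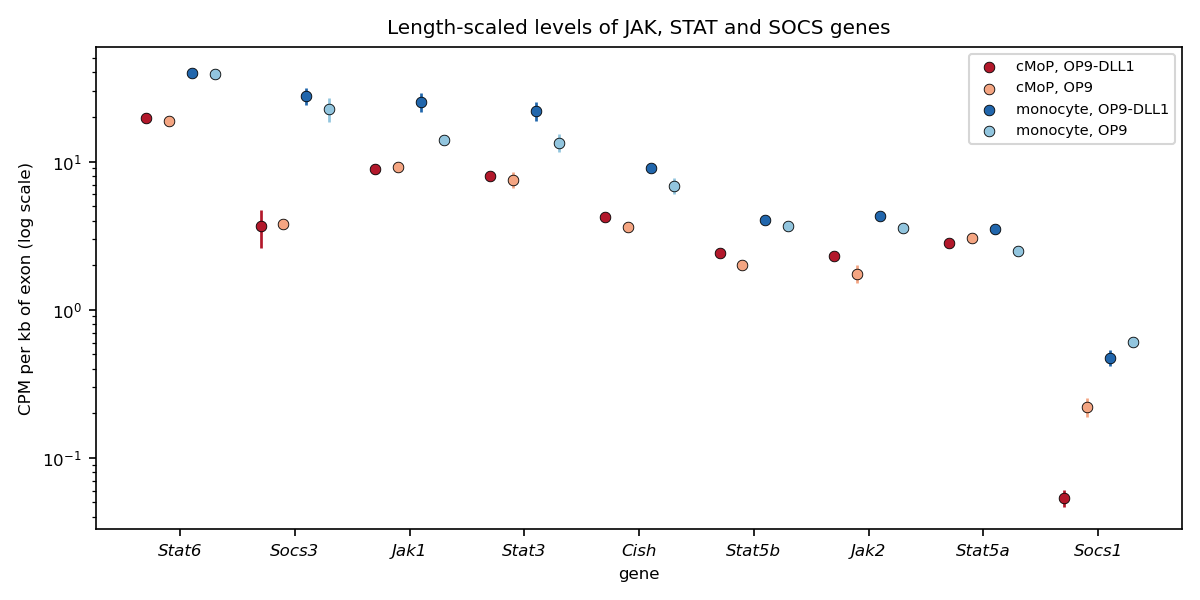
Mean level of each gene in CPM per kb of exon (vertical axis, log scale) in each group, with lines over the range of the 2 libraries. Stat6 is highest and Socs1 lowest in every group, and Socs3 drops furthest in rank, from place 2 in monocytes. Lengths are all annotated exon bases, and the order of genes depends on them.

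The rest of the pathway was described from 7 lists. Their counts are set beside the shares of all tested genes, which for cMoPs against monocytes were 29.2% lower and 28.2% higher on OP9-DLL1 and 27.7% lower and 28.8% higher on OP9. Of 32 genes of JAK-coupled receptors, 24 were tested, and 17 (70.8%) were lower in cMoPs on each stroma, with 3 (12.5%) higher on OP9-DLL1 and 4 (16.7%) on OP9. Il12rb1, counted as higher on OP9-DLL1, passed the low-value filter through the cMoP libraries alone. Their median log2 fold change was -1.40 on OP9-DLL1 and -1.04 on OP9. Il13ra1, a receptor chain for IL-13, fell by 4.32 on the log2 scale on OP9-DLL1 and by 3.73 on OP9 in cMoPs. The interferon receptor gene Ifnar1 fell by 2.02 on OP9-DLL1 and by 2.07 on OP9, and Csf2rb2, a beta chain of the mouse IL-3 receptor, fell by 2.22 on OP9-DLL1 and fell by 2.57 on OP9.

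In monocytes, 5 of the 24 receptor genes (20.8%) were higher on OP9-DLL1 and none was lower (median log2 fold change 0.19), beside 3.36% higher and 3.03% lower over all genes. Il21r, which encodes the IL-21 receptor that pairs with JAK1 and JAK3, had 65.8 and 71.4 CPM on OP9-DLL1 and 13.4 and 17.1 CPM on OP9 in monocytes. It rose by 2.18 ± 0.17 on the log2 scale (adjusted p = 0.000301, limma-trend), whichever library was left out. In cMoPs Il21r had 36.0 and 38.8 CPM on OP9-DLL1 and 34.3 and 28.3 CPM on OP9, and the difference of the responses passed (-1.92 ± 0.23, adjusted p = 0.0298, limma-trend), but was lost when any one library other than the monocyte libraries on OP9 was left out (adjusted p up to 0.286).

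Il10ra, the ligand-binding chain of the IL-10 receptor, passed in both cell types. It had 15.0 and 17.5 CPM on OP9-DLL1 and 9.05 and 6.28 CPM on OP9 in cMoPs (log2 fold change 1.10 ± 0.19, adjusted p = 0.0331), and 94.8 and 87.3 CPM on OP9-DLL1 and 47.2 and 44.9 CPM on OP9 in monocytes (0.98 ± 0.19, adjusted p = 0.0181, limma-trend). The monocyte call was lost without either monocyte library on OP9-DLL1 (adjusted p up to 0.11), and the cMoP call without either library of either cell type on OP9-DLL1 or without cMoP library 2 on OP9 (adjusted p up to 0.234), and limma-voom did not call it in cMoPs (0.0635). The other receptor genes that rose in monocytes were Csf3r, the G-CSF receptor, by 1.004 ± 0.16 (adjusted p = 0.00779), Il15ra by 0.89 ± 0.17 (adjusted p = 0.0192) and Il13ra1 by 0.83 ± 0.19 (adjusted p = 0.0362, limma-trend). All 3 were lost without monocyte library 2 on OP9-DLL1, and Il13ra1 without any one library other than monocyte library 1 on OP9 (adjusted p up to 0.0788 for Csf3r, 0.161 for Il15ra and 0.241 for Il13ra1).

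Only 7 of 23 listed cytokine ligand genes were tested, and in cMoPs 4 of them were lower than in monocytes on OP9-DLL1 and 5 on OP9, with 1 higher on each. These are 57.1% and 71.4% lower, beside 29.2% and 27.7% of all genes, in 7 genes only, and without Il6, which passed the low-value filter through the monocyte libraries alone, 3 and 4 were lower. Osm, which encodes oncostatin M, had 20.9 and 29.2 CPM on OP9-DLL1 and 25.8 and 28.9 CPM on OP9 in cMoPs, against 149 and 159 CPM on OP9-DLL1 and 241 and 258 CPM on OP9 in monocytes. It was the 1 ligand gene to pass in monocytes, where it was lower on OP9-DLL1 (-0.70 ± 0.16, adjusted p = 0.0399, limma-trend). That call was lost without either monocyte library on OP9-DLL1 or either cMoP library on OP9 (adjusted p up to 0.181). The gene that was higher in cMoPs was Il12a, a subunit of IL-12 and IL-35, by 2.49 ± 0.51 on OP9-DLL1 and 2.50 ± 0.51 on OP9.

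A further 9 JAK, STAT and SOCS family genes were listed and tested. In cMoPs, 4 were lower and 1 higher on OP9-DLL1, and 4 lower and 3 higher on OP9. The 44.4% lower on each stroma stand beside 29.2% of all genes on OP9-DLL1 and 27.7% on OP9, and the 33.3% higher on OP9 are near the 28.8% of all genes. Stat2, which carries type I interferon signals, had log2 fold changes of -2.34 ± 0.20 on OP9-DLL1 and -2.16 ± 0.20 on OP9, and the kinase gene Tyk2 had -1.09 ± 0.14 and -1.11 ± 0.14 on the same stromas. Jak3, the kinase of the common gamma chain, was higher in cMoPs on OP9 (1.27 ± 0.24, adjusted p = 0.00165, limma-trend).

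In monocytes, 2 of these 9 family genes passed between the stromas, both as higher on OP9-DLL1, beside 3.36% of all genes. Jak3 had 5.91 and 8.46 CPM on OP9-DLL1 and 2.98 and 3.20 CPM on OP9 (log2 fold change 1.19 ± 0.24, adjusted p = 0.0206), and Tyk2 had 56.5 and 66.2 CPM on OP9-DLL1 and 40.7 and 43.0 CPM on OP9 (0.55 ± 0.14, adjusted p = 0.0491, limma-trend). Jak3 was lost without library 2 of the monocytes on OP9-DLL1 (adjusted p = 0.165), and Tyk2 without any one library other than monocyte library 2 on OP9 (adjusted p up to 0.315).

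Of 16 listed phosphatases, adaptors and other inhibitors, 15 were tested, and in cMoPs 9 were lower on OP9-DLL1 and 11 on OP9, with 1 and 0 higher. These are 60% and 73.3% lower, beside 29.2% and 27.7% of all genes. In monocytes 2 were higher and 1 lower on OP9-DLL1, beside 3.36% and 3.03% of all genes. Ptprc, which encodes the phosphatase CD45, had 951 and 899.7 CPM on OP9-DLL1 and 517 and 461 CPM on OP9 in monocytes. It was higher on OP9-DLL1 there (0.92 ± 0.11, adjusted p = 0.00224, limma-trend) whichever library was left out. Ptpn1, the phosphatase PTP1B that dephosphorylates JAK2 and TYK2, was also higher (1.15 ± 0.24, adjusted p = 0.025), and Usp18, an inhibitor of the type I interferon receptor, was lower (-0.92 ± 0.22, adjusted p = 0.0413, limma-trend). The Ptpn1 call was lost without either monocyte library on OP9-DLL1 (adjusted p up to 0.193), and the Usp18 call without any one library other than monocyte library 2 on OP9 (adjusted p up to 0.272).

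**Figure D4:**
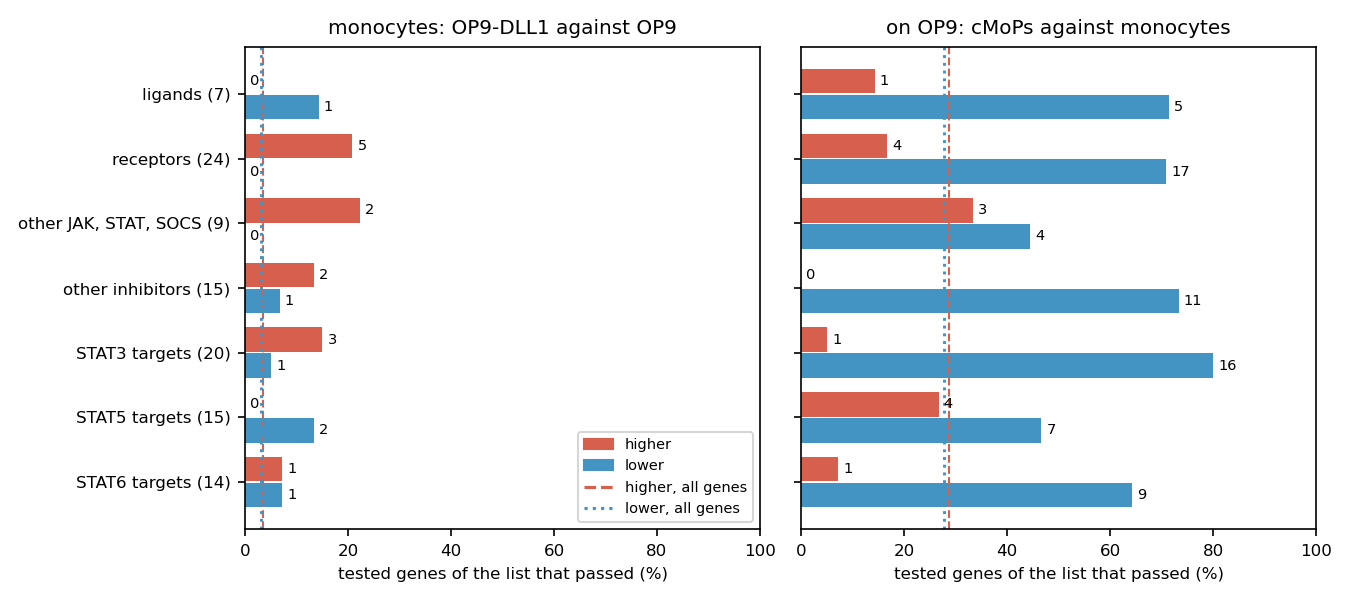
Share of the tested genes of each list that passed as higher or lower (horizontal axis, percent; counts beside the bars, tested genes in brackets), for OP9-DLL1 against OP9 in monocytes on the left and cMoPs against monocytes on OP9 on the right. Dashed and dotted lines give the shares over all genes (3.36% and 3.03% on the left). The longest bars on the left are those of the further family genes (2 of 9 higher) and the receptor genes (5 of 24 higher), and STAT3 targets have 16 of 20 lower on the right. Stat3 and Socs3 are among those 16.

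Genes known from other work as STAT targets were described in 3 lists, which share some genes with each other and with the 9. Stat3 and Socs3 are in the STAT3 list, Socs3 and Cish in the STAT5 list, and Socs1 and Cish in the STAT6 list. These genes were already lower in cMoPs among the 9 and are counted again below, so their part is no independent support. Of 20 tested STAT3 targets, 16 were lower in cMoPs than in monocytes on each stroma and 1, the proliferation gene Myc, was higher. The 80% lower stand beside 29.2% of all genes on OP9-DLL1 and 27.7% on OP9. Their median log2 fold change was -1.54 on OP9-DLL1 and -1.48 on OP9. The RNA-binding protein gene Zfp36 fell by 2.78 on the log2 scale on OP9-DLL1 and fell by 2.65 on OP9, and Hif1a, a subunit of the hypoxia-inducible factor, fell by 2.76 on OP9-DLL1 and fell by 2.95 on OP9. In monocytes on OP9-DLL1 3 of the 20 were higher, beside 3.36% of all genes, Il1rn (1.47 ± 0.21), Tnfrsf1b (1.01 ± 0.14) and Icam1 (1.06 ± 0.18), and Myc was lower (-1.65 ± 0.18, adjusted p = 0.0014, limma-trend). Icam1 was lost without monocyte library 1 on OP9-DLL1 (adjusted p = 0.0861, limma-trend).

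Of 15 tested STAT5 targets, 8 were lower and 5 higher in cMoPs than in monocytes on OP9-DLL1, and 7 lower and 4 higher on OP9. The shares higher, 33.3% on OP9-DLL1 and 26.7% on OP9, are near those of all genes (28.2% and 28.8%), and the shares lower are 53.3% and 46.7%, beside 29.2% and 27.7%. Bcl6 and Gfi1 are in these counts although each passed the low-value filter through 1 cell type alone, and without them 7 of 13 were lower and 4 higher on OP9-DLL1, and 6 lower and 3 higher on OP9. The D-type cyclin genes Ccnd2 (6.68 ± 0.42 on OP9-DLL1 and 5.61 ± 0.42 on OP9) and Ccnd1 (3.73 ± 0.35 and 3.45 ± 0.35) were among those higher, while Osm, Mcl1, Socs3 and Cish were among those lower. In monocytes 2 passed as lower on OP9-DLL1 and none as higher, beside 3.03% and 3.36% of all genes, namely Ccnd1 (-1.85 ± 0.35, adjusted p = 0.0174, limma-trend) and Osm. Ccnd1 was lost without either monocyte library on OP9-DLL1, at adjusted p up to 0.102, and was not called by limma-voom (0.0669).

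Of 14 tested STAT6 targets, 10 were lower in cMoPs than in monocytes on OP9-DLL1 and 9 on OP9, with 1, the lectin gene Mgl2, higher on each, beside 29.2% and 27.7% of all genes as lower. Irf4, Socs1, Cd36 and Egr2 passed the low-value filter through the monocyte libraries alone, so their part of these counts is no support, and without them 6 of 10 were lower on each stroma. The chitinase-like gene Chil3 had 97.8 and 48.3 CPM on OP9-DLL1 and 104 and 55.9 CPM on OP9 in cMoPs, against 3515 and 1894 CPM on OP9-DLL1 and 3247 and 1671 CPM on OP9 in monocytes. Between the stromas, Mgl2 was higher and the arginase gene Arg1 lower in monocytes on OP9-DLL1, and the chemokine gene Ccl24 was higher in cMoPs on OP9-DLL1 (2.21 ± 0.41, adjusted p = 0.0484, limma-trend). These counts of 1 stand beside 3.36% higher and 3.03% lower over all genes in monocytes and 0.77% passing in cMoPs. limma-voom called neither Mgl2 in monocytes (adjusted p = 0.145) nor Ccl24 in cMoPs (0.075). The Mgl2 call was lost without either monocyte library on OP9-DLL1 (adjusted p up to 0.107), and the Arg1 call without any one library other than the cMoP libraries on OP9 (up to 0.279). Ccl24 was lost without any library on OP9-DLL1 or cMoP library 2 on OP9 (up to 0.278).

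The genes whose log2 levels over the 8 libraries were most like those of a member were found among 8354 genes by Pearson correlation. They are given as a description, since the 8 libraries share 4 groups and the split between cell types sets most of each value. They were Ostm1 for Jak1 (r = 0.997), Oaz2 for Jak2 (0.998), Ten1 for Stat3 (0.991), Ms4a6d for Stat5b (0.996), Ubl5 for Stat6 (0.996), P2ry10b for Socs1 (0.988), Wdr81 for Socs3 (0.996) and Klf13 for Cish (0.995). Stat5a, which did not separate the cell types, had the least close match, Ccdc71 at 0.973. Ostm1 was also among the 3 closest to Stat3 (0.989).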

How the data were processed

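Sorted cells were cocultured, and cDNA was made with a kit that does not mark the strand and sequenced as read pairs, per the labels' protocols. Per the submitters' processing notes, reads were handled with edgeR, limma, STAR 2.7.9a, featureCounts 2.0.3, Subread, bcl2fastq and Salmon 1.5.2 on build mm10, in an order and with settings not given in the sources used here. This deposited table has 13430 entries for 13388 genes, and 42 repeats were dropped. Its sample columns hold log2 CPM as normalized by the authors, and no other per-sample column was left unused (0). It also holds p-values and log2 fold changes of the authors for 4 comparisons, and a signed linear fold as a score that the authors derived from them and that was not used. The log2 fold changes were turned where needed so that positive means higher on OP9-DLL1 or in cMoPs.

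The deposited log2 values correspond to whole reads plus 0.5 for 100% of values (tolerance 0.001). CPM values and totals were recovered from them. The test was limma-trend (R 4.3.3, limma 3.58.1) on those log2 values, with 4 group means over 8 libraries (4 residual degrees of freedom), two-sided, for the 13374 genes that reached 1 CPM in 2 or more libraries (14 did not), with Benjamini-Hochberg adjustment over all of them. The 5 contrasts set OP9-DLL1 against OP9 in monocytes and in cMoPs, took the difference between those, and set cMoPs against monocytes on OP9 and on OP9-DLL1. Errors are the SD of 2 libraries or the SE of the fit. Alternatives were no trend, other filters, log2(CPM + 1), other scalings, library weights, limma-voom on recovered reads, 4 libraries only, a replicate block and each library left out. limma-voom called 988 genes between stromas in monocytes. Counting noise did not account for the spread of any replicate pair (chi-square over its degrees of freedom, 24.0 to 157).

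The 9 genes and all lists were chosen with earlier results of these data known. All 9 are named in every comparison; of each list, up to 4 genes that passed, by adjusted p, or up to 2 values where none passed, are eligible, and others behind a small count were named after their values were seen. Of the lists, 1 list and 1 gene are not reported here. Gene positions and exon lengths are from GENCODE M21 on GRCm38 (mm10), and promoter windows from RefSeq, which had 11 windows for the 9 genes.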

Additional observations from a re-analysis of the deposited data

Results flagged for a closer look

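For Stat5a the libraries on OP9-DLL1 lay on opposite sides of those on OP9 in the cell types: both cMoP libraries on OP9-DLL1 were below both on OP9, and both monocyte libraries on OP9-DLL1 were above both on OP9. Neither response passed: the log2 fold change was -0.11 ± 0.15 in cMoPs (adjusted p = 0.908) and 0.48 ± 0.15 in monocytes (adjusted p = 0.101, limma-trend). The difference of the log2 fold changes, cMoPs minus monocytes, was -0.59 ± 0.21 and did not pass (adjusted p = 0.424, limma-trend), with 0.419 by limma-voom.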

How the results depend on the processing

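Of 17 results that passed among the 9 genes, 13 passed under every alternative in which the gene was tested, and none changed sign. Over 832 alternative values of single genes, 795 kept direction and side of the threshold, 13 lost a call, 7 gained one and 17 changed sign, all of them values that had not passed. In monocytes the count of 1 gene higher on OP9-DLL1 became 0 without the mean-variance trend (Jak1, adjusted p = 0.0947), 0 with library weights (0.0576) and 0 with only the 4 monocyte libraries (0.075), became 2 with log2(CPM + 1) and 2 with limma-voom, and ranged from 0 to 3 with single libraries left out. In cMoPs the count of 0 became 1 without the trend (Socs1). For the difference of responses it ranged from 0 to 1, and for cMoPs against monocytes on OP9 from 5 to 8, with single libraries left out. Socs1 on OP9 was also lost with library weights (0.0895), and the filter at 5 CPM left Socs1 out. Centring on medians turned Stat6 in monocytes to -0.0675, and quantile normalization turned its difference of responses to -0.0428. With single libraries left out, values that changed sign ranged from -0.0948 to 0.12 for Stat6 in monocytes, and in cMoPs from -0.14 to 0.0718 for Jak1, from -0.0220 to 0.19 for Stat6, from -0.0831 to 0.28 for Stat3 and from -0.54 to 0.31 for Socs3. For the difference of responses they ranged from -0.0369 to 0.18 for Stat6, from -0.35 to 0.00466 for Cish, from -0.0803 to 0.33 for Jak2 and from -0.84 to 0.011 for Socs3. The cause of these changes was not tested. Over all genes, 855 passed in monocytes, against 248 without the trend, 413 with library weights, 306 with 4 libraries and 164 to 2488 with single libraries left out. In cMoPs 103 passed, against 37 without the trend, 304 with library weights, 64 with limma-voom, 315 with 4 libraries, 31 to 308 with single libraries left out and 244 in the authors' deposited table. The difference passed for 7, against 1 without the trend, 24 with log2(CPM + 1) and 0 to 1124 with single libraries left out. Centring on medians gave 361 higher and 545 lower in monocytes on OP9-DLL1, against 450 higher and 405 lower, and it moved the median log2 fold change of cMoPs against monocytes on OP9-DLL1 to 0.0982, against -0.01. With the replicate block 1, 0, 0, 8 and 8 of the 9 genes passed, in monocytes, in cMoPs, for the difference and for cMoPs against monocytes on OP9 and on OP9-DLL1, as did 1058 of all genes in monocytes, 156 in cMoPs and 11 for the difference. Same-numbered libraries deviated together only weakly over all genes (correlations of replicate differences 0.023 to 0.089). Such a correlation can miss a shared batch that moved few genes, so what these libraries share stays unknown. Depth limits Socs1, and 2 libraries a group limit every call.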
